A study of Mus musculus with 9 samples.

Results

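The genes described here encode the sensors that start inflammasomes, the kinase NEK7 and the adaptor ASC, which is the product of Pycard. They were taken by symbol from a table of mouse genes, and all 10 symbols of the list were found among the 34714 rows: Pycard, Nlrp3, Nek7, Nlrp1a, Nlrp1b, Naip2, Naip5, Naip6, Nlrc4 and Aim2. RNA had been sequenced from mouse cortex in 3 groups of 3 libraries. The groups were naive mice (titled Control), mice with EAE (experimental autoimmune encephalomyelitis, in which immune cells attack myelin) and mice with EAE given Au18(L-NIBC)14, a gold nanocluster named in the series title as acting on ASC oligomerisation. The labels do not state strain, sex, age, immunisation protocol, disease stage, dose or schedule, nor do they say whether each numbered brain is 1 animal, so the tests measure only the spread between these libraries. The characteristics call the tissue brain and the protocol calls it cortical. The 6 markers of cortical excitatory neurons summed to 1729 to 1797 CPM (counts scaled to a common library total, as counts per 1e+06) in naive libraries. They summed to 1464 to 1705 CPM in EAE and to 1850 to 1937 CPM in treated EAE. Over all libraries 6 striatal markers ranged from 180 to 1287 CPM.

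An inflammasome is a protein complex that forms in the cytosol when a sensor meets a sign of infection or damage. The sensor recruits ASC, which polymerises into a large speck and gathers caspase-1. Caspase-1 then matures IL-1 beta and IL-18 and cleaves gasdermin D, whose pores release them and can kill the cell. In the brain many of these genes are known chiefly from microglia and from macrophages and monocytes that enter during inflammation. Assembly is a matter of protein contacts, and RNA levels do not measure it.

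Total counts were between 26972179 and 45243553 per library, and the filter on low counts left 18644 genes for testing, all 10 members among them. Most of the members sat at the low end of what these libraries could measure. Summed over the 9 libraries, Nek7 had 15894 counts, Aim2 had 1729, Pycard 754, Naip5 750, Naip2 572, Nlrp3 443, Naip6 405 and Nlrp1b 387. Nlrc4 had 106 counts and Nlrp1a 91, with single libraries as low as 4 and 3. The biological coefficient of variation estimated by edgeR was 0.12 for Nek7 and 0.16 for Aim2, against a median of 0.14 over all tested genes. It was 0.23 to 0.34 for Nlrp1b, Pycard, Naip5, Naip6, Nlrp1a, Nlrp3 and Naip2, and 0.53 for Nlrc4.

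Sequence bears on these values in 2 ways. The NAIP genes are close paralogs that lie side by side on chromosome 13, and reads from a stretch they share cannot be placed with certainty. In GENCODE M21 the principal transcripts of Naip5 and Naip6 were identical at 91.6% of aligned bases, those of Naip2 and Naip5 at 87.8% and those of Nlrp1a and Nlrp1b at 85.8%. Of all stretches of 100 bases in the annotated transcripts, 16.2% of those of Naip5, 6.26% of Naip6 and 4.44% of Naip2 also occurred in another gene, in each case another NAIP gene or pseudogene. The share was 0.0689% for Nlrp1a and 0.0477% for Nlrp1b, and none was found for Nlrp3, Nlrc4 or Aim2. For Pycard it was 10.3%, all of it in Gm45205, a gene model on the opposite strand. Its exons overlap 12.8% of the exon bases of Pycard, and without a stated strand setting reads from that overlap cannot be told apart.

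Among these paralogs, Naip2 and Naip5 also carried a common stretch just before their start sites. The 250 bases before each start (RefSeq, GRCm38.p6) are printed to show it. The window of Naip5 lies inside the RefSeq span of the gene, which on the minus strand begins at 100250930, so this start is an internal one. Capitals mark the 2 runs of at least 12 bases that are the same in both, which hold 57 bases in all, the longer one 34.
Naip2 (chr13:100202123-100202372, minus strand): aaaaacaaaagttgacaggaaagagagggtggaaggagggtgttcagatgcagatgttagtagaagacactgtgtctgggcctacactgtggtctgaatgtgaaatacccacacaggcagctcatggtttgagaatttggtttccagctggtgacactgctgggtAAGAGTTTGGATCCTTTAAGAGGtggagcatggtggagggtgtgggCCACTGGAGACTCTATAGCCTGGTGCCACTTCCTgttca
Naip5 (chr13:100247337-100247586, minus strand): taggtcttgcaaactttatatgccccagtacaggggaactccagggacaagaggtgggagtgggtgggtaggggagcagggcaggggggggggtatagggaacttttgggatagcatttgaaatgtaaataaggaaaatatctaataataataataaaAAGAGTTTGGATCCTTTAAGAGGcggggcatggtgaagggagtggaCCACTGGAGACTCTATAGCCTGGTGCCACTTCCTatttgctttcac
Outside these runs the windows differ, and over the 208 bases that could be aligned 69.2% were identical. The window of Naip6 could be aligned with that of Naip5 over 161 bases, at 57.1% identity.

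All 10 members had a RefSeq promoter window, 12 windows in all because Nlrp3 and Nlrp1b have 2 starts each. Each was searched on both strands for 3 motifs: GAGGAAGT, a site of the myeloid transcription factor PU.1, GAAANNGAAA, an interferon-stimulated element, and the NF-kB consensus. The PU.1 letters were found in 4 of the 10 members, against 2.44% of all 32851 windows of the same length. These 4 windows are printed because Pycard is the adaptor and because Nlrp1a and Nlrp1b, which are paralogs, hold the site at nearly the same place. Capitals mark the match, or its reverse complement in Pycard.
Pycard (chr7:127993868-127994117, minus strand): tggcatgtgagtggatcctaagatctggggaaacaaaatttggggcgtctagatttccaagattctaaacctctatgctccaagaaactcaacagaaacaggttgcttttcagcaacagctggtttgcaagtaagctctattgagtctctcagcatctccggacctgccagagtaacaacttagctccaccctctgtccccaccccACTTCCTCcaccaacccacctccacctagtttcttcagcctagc
Aim2 (chr1:173420354-173420603, plus strand): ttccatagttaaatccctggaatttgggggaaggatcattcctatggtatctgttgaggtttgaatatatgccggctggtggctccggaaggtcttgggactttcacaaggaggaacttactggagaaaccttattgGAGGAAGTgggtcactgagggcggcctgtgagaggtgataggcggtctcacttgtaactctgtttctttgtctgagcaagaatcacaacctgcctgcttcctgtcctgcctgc
Nlrp1a (chr11:71144705-71144954, minus strand): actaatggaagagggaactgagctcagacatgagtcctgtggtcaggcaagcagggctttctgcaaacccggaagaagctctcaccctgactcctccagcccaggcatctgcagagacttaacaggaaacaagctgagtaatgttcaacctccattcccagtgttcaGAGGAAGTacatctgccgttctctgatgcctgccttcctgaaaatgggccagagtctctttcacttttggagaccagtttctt
Nlrp1b (chr11:71230734-71230983, minus strand): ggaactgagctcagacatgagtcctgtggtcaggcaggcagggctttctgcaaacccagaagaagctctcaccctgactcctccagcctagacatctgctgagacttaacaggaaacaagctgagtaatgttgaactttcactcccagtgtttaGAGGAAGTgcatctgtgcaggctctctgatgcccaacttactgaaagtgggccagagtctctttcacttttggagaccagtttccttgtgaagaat
The match lies 37 to 44 bases before the start in Pycard, 106 to 113 in Aim2, 76 to 83 in Nlrp1a and 89 to 96 in Nlrp1b. Of these windows, only that of Pycard lies outside the RefSeq span of its gene. Those of Aim2, Nlrp1a and Nlrp1b precede starts within the span. The span of Aim2 begins at 173349547, and on the minus strand those of Nlrp1a and Nlrp1b begin at 71144969 and 71242514. The NF-kB consensus was found in 2 members, in 1 of the windows of Nlrp3 and in Naip5, against 7.25% of all windows. The interferon element was in none of the members' windows and in 2.98% of all windows. A match is a description of letters, not of binding, and these motifs were chosen with earlier results of these data known.

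Levels of different genes are compared per length of the principal transcript. Nek7 had the highest level, 10.2 CPM per kb (SD 1.18 over 9 libraries), and its lowest library was 3.15 times the highest of Aim2, the next gene, at 2.03 CPM per kb (SD 0.352). Aim2 in turn did not overlap Pycard, at 0.665 CPM per kb (SD 0.276). From Pycard down, neighbours in the order overlapped between libraries: Naip5 was at 0.482 CPM per kb, Naip2 at 0.399, Nlrp3 at 0.357, Nlrp1b at 0.308, Naip6 at 0.201, Nlrp1a at 0.0769 and Nlrc4 at 0.0762. The place of Pycard depends on the gene model: GENCODE gives its principal transcript 3800 bases, whereas the RefSeq gene spans only 2495 bases with introns, which would put it at 1.01 CPM per kb or more.

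**Figure D1:**
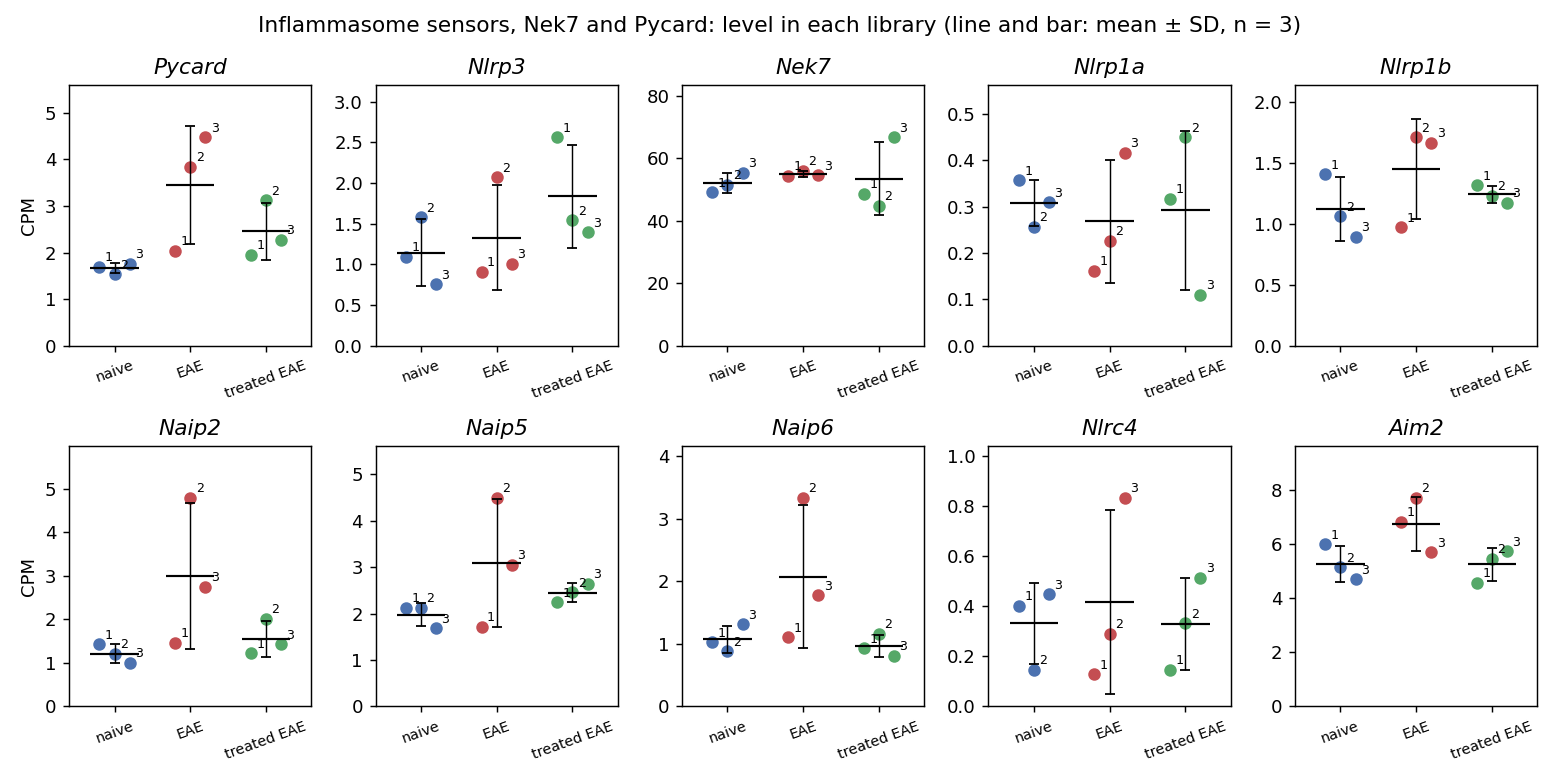
CPM of each member (vertical axis, from 0, with its own scale per gene) in the naive, EAE and treated EAE libraries. Points are libraries with their replicate number, and lines with bars are the mean ± SD of 3. EAE replicates 2 and 3 are the highest libraries for Pycard and the 3 NAIP genes, while EAE replicate 1 lies among or near the naive libraries, and Nek7 stays between 44.8 and 66.8 CPM.

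In EAE against naive cortex, which asks what the disease changed, Pycard and the NAIP genes had the largest differences of the 10 members and Nek7 the smallest. No member passed the edgeR test at an adjusted p of 0.05, where 184 of all 18644 genes did (0.987%). Before adjustment, 3 members were under 0.05, Pycard, Naip2 and Naip6, all higher in EAE, against 9.42% of all genes in that direction. DESeq2, the tool named in the series' design text, called Pycard and Naip2, against 6.06% of all genes in either direction. The fitted change was above 0 for 9 of 10 members with a median log2 fold change of 0.35, and above 0 for 49% of all tested genes with a median of -0.01. In Pycard and Naip2 every EAE library was above every naive library, as it was in 12.2% of all genes.

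Pycard encodes ASC, the adaptor that gathers caspase-1 (chromosome 7, 127989708 to 127993867, minus strand, GENCODE M21 on GRCm38). It was at 1.70, 1.54 and 1.76 CPM in naive replicates 1 to 3, at 2.04, 3.85 and 4.48 CPM in EAE and at 1.95, 3.13 and 2.28 CPM in treated EAE. Both disease groups lay above the naive libraries without overlap and overlapped each other. EAE replicate 1 was closer to the naive libraries than to the other EAE libraries. The means were 1.67 ± 0.112 CPM in naive, 3.46 ± 1.26 CPM in EAE and 2.45 ± 0.608 CPM in treated EAE (SD, n = 3 each). For EAE against naive the log2 fold change was 1.05 (SE 0.30, 95% interval 0.37 to 1.73, edgeR adjusted p = 0.129). DESeq2 gave adjusted p = 0.0334 and a log2 fold change of 1.05. Without EAE replicate 1 the log2 fold change was 1.32 with an edgeR adjusted p = 0.0409, and over all 15 alternatives it stayed between 0.83 and 1.32.

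Nlrp3 encodes the sensor of potassium efflux and many other signs of damage (chromosome 11, 59541568 to 59566956, plus strand). Its levels were 1.10, 1.58 and 0.758 CPM in naive libraries, 0.909, 2.07 and 1.01 CPM in EAE and 2.56, 1.54 and 1.40 CPM in treated EAE. All 3 groups overlapped, and the highest value was in treated replicate 1. The log2 fold change in EAE was 0.22 (SE 0.41, edgeR adjusted p = 0.847), and it ran from -0.25 without EAE replicate 2 to 0.51 without naive replicate 2. The 95% interval, from -0.70 to 1.14, is wide in both directions.

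Nek7 encodes the kinase that binds NLRP3 and is needed for its activation (chromosome 1, 138482875 to 138620141, minus strand). It was at 49.1, 51.6 and 55.4 CPM in naive, at 54.4, 56.0 and 54.6 CPM in EAE and at 48.7, 44.8 and 66.8 CPM in treated EAE. The 3 EAE libraries lay close together and the treated ones were the most spread. In EAE the log2 fold change was 0.08 (SE 0.13, edgeR adjusted p = 0.821), with a 95% interval from -0.21 to 0.37 that leaves room for only a small change. Treated replicate 3, where Nek7 was highest, was also highest in the 6 oligodendrocyte markers, which summed to 9056 CPM there and to 2749 and 4411 CPM in treated replicates 1 and 2. Their part in the spread of Nek7 was not tested.

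Nlrp1a and Nlrp1b encode sensors that are freed to act when their N-terminal part is degraded, as by anthrax lethal factor for some NLRP1B variants (chromosome 11, 71092236 to 71144704 and 71153102 to 71230733, both minus strand). Nlrp1a had 16, 7 and 9 counts in the naive libraries, 5, 7 and 12 in EAE and 13, 19 and 3 in treated EAE. At this depth a change could not be seen, and the 95% interval in EAE ran from -1.42 to 0.98 on the log2 scale. Nlrp1b was at 1.41, 1.06 and 0.896 CPM in naive, 0.974, 1.71 and 1.67 CPM in EAE and 1.32, 1.23 and 1.18 CPM in treated EAE. Its log2 fold change in EAE was 0.36 (SE 0.29, edgeR adjusted p = 0.594), and EAE replicate 1 lay inside the naive range.

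The NAIP proteins bind bacterial ligands in the cytosol, NAIP5 and NAIP6 flagellin and NAIP2 the rod protein of type III secretion, and then join with NLRC4. Naip2 (chromosome 13, 100144063 to 100202092, minus strand) had the largest difference of all members. It was at 1.43, 1.21 and 0.999 CPM in naive, 1.46, 4.79 and 2.74 CPM in EAE and 1.22, 2.02 and 1.43 CPM in treated EAE. EAE replicate 1 was only just above the highest naive library, and replicates 2 and 3 lay well above. The log2 fold change was 1.29 (SE 0.40, edgeR adjusted p = 0.152), and DESeq2 gave adjusted p = 0.0476. Without EAE replicate 2 it was 0.78 (edgeR adjusted p = 0.431).

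Naip5 (100211739 to 100246323) was at 2.12, 2.13 and 1.69 CPM in naive, 1.72, 4.50 and 3.06 CPM in EAE and 2.25, 2.47 and 2.65 CPM in treated EAE. Naip6 (100281121 to 100317674) was at 1.03, 0.880 and 1.31 CPM in naive, 1.10, 3.33 and 1.77 CPM in EAE and 0.928, 1.16 and 0.808 CPM in treated EAE. For both genes EAE replicate 1 lay among the naive libraries and EAE replicate 2 was the highest of all 9. The log2 fold changes in EAE were 0.64 (SE 0.31) for Naip5 and 0.95 (SE 0.39) for Naip6, with edgeR adjusted p of 0.345 and 0.264. Without EAE replicate 2 they were 0.27 and 0.42. Since reads can be shared among these paralogs, their sum is less open to misplacement: Naip2, Naip5 and Naip6 together had 4.27 ± 0.295 CPM in naive (SD, n = 3), 4.28, 12.6 and 7.57 CPM in EAE replicates 1 to 3 and 4.98 ± 0.629 CPM in treated EAE (SD, n = 3).

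Nlrc4, the partner that all NAIP proteins act through (chromosome 17, 74425438 to 74459142, minus strand), did not show the same pattern at this depth. It had 18, 4 and 13 counts in naive, 4, 9 and 24 in EAE and 6, 14 and 14 in treated EAE. The log2 fold change in EAE was 0.29 with an SE of 0.70, and its direction turned without EAE replicate 3 (-0.67). An interval from -1.27 to 1.85 includes both 0 and the value fitted for Naip2.

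Aim2 encodes a sensor of double-stranded DNA in the cytosol (chromosome 1, 173350879 to 173466040, plus strand). It was at 5.99, 5.13 and 4.69 CPM in naive, 6.81, 7.70 and 5.70 CPM in EAE and 4.57, 5.45 and 5.73 CPM in treated EAE. EAE replicates 1 and 2 lay above all other libraries and EAE replicate 3 inside the naive range. The log2 fold change in EAE was 0.35 (SE 0.17, 95% interval -0.02 to 0.72, edgeR adjusted p = 0.335). Of Pycard, Aim2 and the NAIP genes, Aim2 was the one whose EAE replicate 1 lay above replicate 3.

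**Figure D2:**
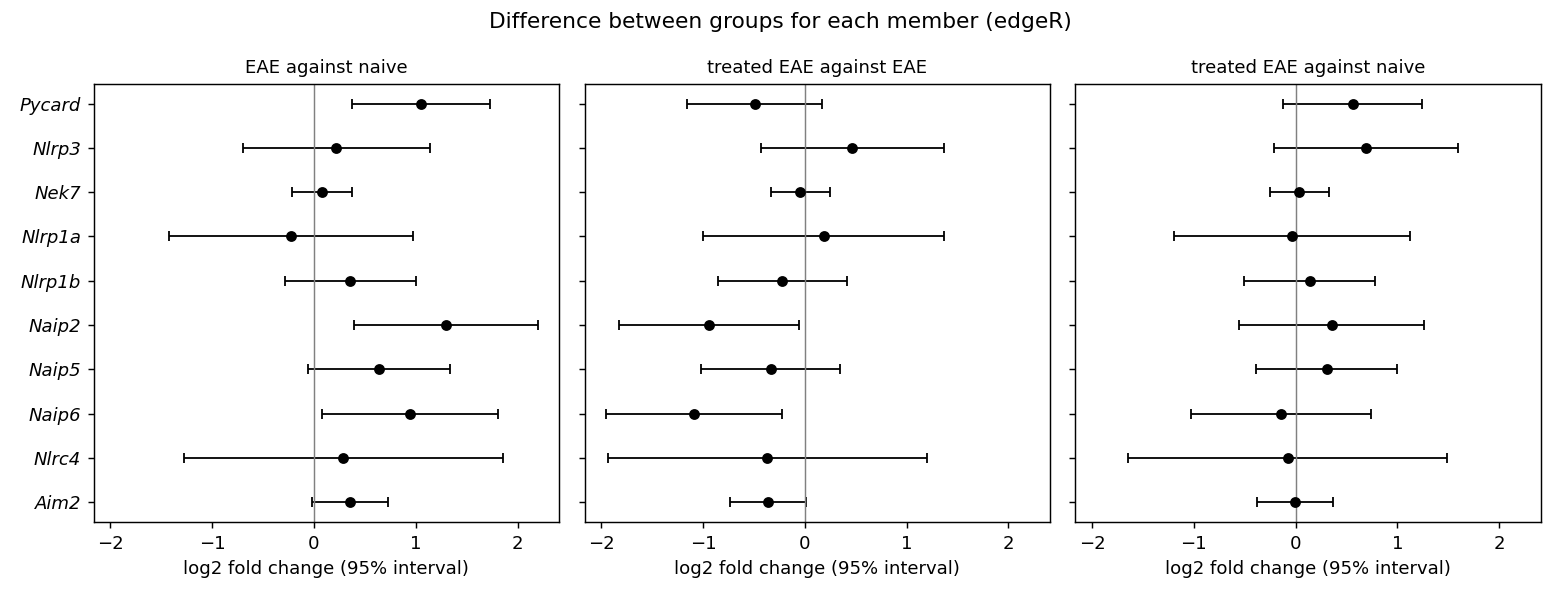
Log2 fold change of each member (horizontal axis) with its 95% interval from edgeR, in EAE against naive, treated EAE against EAE and treated EAE against naive. In EAE against naive the intervals of Pycard, Naip2 and Naip6 lie above 0, those of Nek7 and Aim2 are the narrowest, and those of Nlrp1a and Nlrc4 the widest.

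Markers of several cell types, myeloid and other, were higher in the same EAE libraries. The 14 microglial markers summed to 408 to 501 CPM in naive, to 460, 917 and 603 CPM in EAE replicates 1 to 3 and to 461 to 559 CPM in treated EAE. In EAE 10 of 14 were above 0, against 49% of all genes, with a median log2 fold change of 0.36. None passed, where 0.987% of all genes did. The 10 markers of monocytes and macrophages summed to 57.9 to 71.2 CPM in naive, 95.4 to 235 CPM in EAE and 75.0 to 104 CPM in treated EAE. In EAE all 10 were above 0, against 49% of all genes, with a median of 1.91 and 1 past the threshold, against 0.987% of all genes. Of these markers Ms4a7 and Plac8 were at 0 in some naive or treated libraries. Neutrophil markers summed to 6.20 to 9.75 CPM in naive, 8.92, 20.1 and 14.6 CPM in EAE replicates 1 to 3 and 7.94 to 10.6 CPM in treated EAE. Only 2 of the 8 neutrophil markers had enough counts to be tested. In EAE replicate 2, which had the highest sum, Ly6g, Retnlg, Camp and Mmp8 were at 0, and Ly6g was at 0 in every library. T cell markers summed to at most 20.7 CPM, the maximum being in a naive library, and B cell markers to at most 1.23 CPM. Astrocyte markers summed to 4482 to 5082 CPM in naive, 4559, 6556 and 5613 CPM in EAE and 3818 to 5755 CPM in treated EAE. For endothelial markers these sums were 179 to 182 CPM, 184, 272 and 224 CPM, and 170 to 260 CPM. Under treatment, against untreated EAE, 4 of 14 microglial and 0 of 10 monocyte and macrophage markers were above 0, against 50.6% of all genes. Their medians were -0.25 and -1.56, and none passed, where 0.22% of all genes did. Other cells also differed between the groups. The 8 neuron markers summed to 6058 to 6673 CPM in naive, 5311 to 6083 CPM in EAE and 6336 to 7034 CPM in treated EAE. In EAE 3 of these 8 were above 0, against 49% of all genes. The 5 red cell markers summed to 131 to 175 CPM in naive, 7.16 to 23.6 CPM in EAE and 102 to 380 CPM in treated EAE. By edgeR 2 of them fell in EAE, where 0.987% of all genes passed in either direction. The 6 choroid plexus markers summed to 898 CPM in EAE replicate 1 and to at most 104 CPM in the other libraries. In bulk tissue, more cells of a type and more RNA per cell cannot be told apart, and the part of these cell types in the members' differences was not tested.

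Each member was also set against the microglial markers. For Naip5 the level was 4.14 to 4.37 CPM per 1000 CPM of microglial markers in naive, 3.74 to 5.07 in EAE and 4.45 to 4.88 in treated EAE. The ratio of Naip2 was 2.41 to 2.94 in naive, 3.18 to 5.22 in EAE and 2.57 to 3.64 in treated EAE, so that its EAE libraries stayed above the naive ones. The share of all genes for which this holds after such scaling was not computed. Without scaling it was 12.2%. For Pycard the ratio was 3.07 to 4.31 in naive, 4.20 to 7.43 in EAE and 4.08 to 5.65 in treated EAE, and the groups overlapped. Other members had lower mean ratios in EAE than in naive: Nlrp3 with 1.97 against 2.42, Nek7 with 90.0 against 113, Nlrp1a with 0.430 against 0.669, Nlrc4 with 0.660 against 0.739, Nlrp1b with 2.25 against 2.40 and Aim2 with 10.9 against 11.4. The mean ratio of Naip6 was 2.99 in EAE and 2.36 in naive. In these 7 genes the EAE and naive libraries overlapped. The ratios were not tested.

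**Figure D3:**
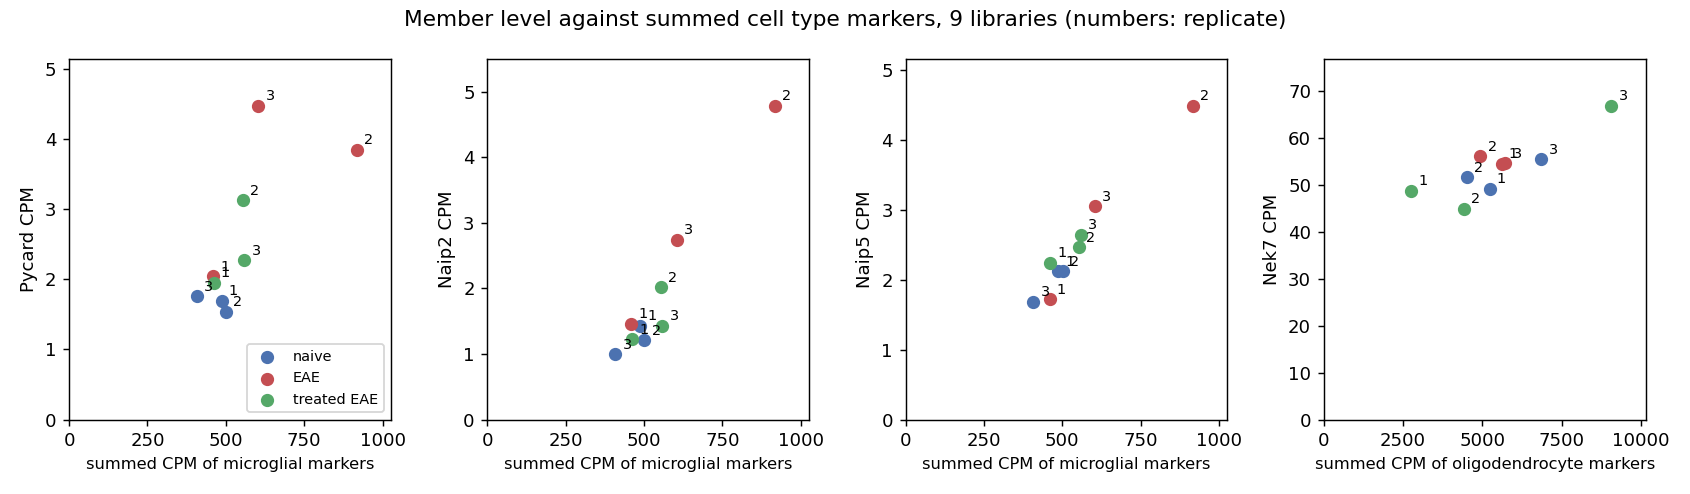
CPM of Pycard, Naip2 and Naip5 against the summed CPM of 14 microglial markers, and of Nek7 against the summed CPM of 6 oligodendrocyte markers, one point per library with its replicate number (all axes from 0). EAE replicate 2 has the highest microglial sum, 917 CPM, and the highest Naip2 and Naip5, while Pycard is highest in EAE replicate 3, and Nek7 is highest in treated replicate 3, where the oligodendrocyte sum is 9056 CPM.

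In treated against untreated EAE, which asks what the compound changed in diseased mice, 8 of the 10 members had a fitted change below 0, Nlrp3 and Nlrp1a being the exceptions, while 50.6% of all genes were above 0. No member passed the edgeR test, where 41 genes did (0.22%), and DESeq2 called none, where it called 4.44% of all genes. Before adjustment, 2 members were under 0.05, Naip2 and Naip6, both lower, against 7.65% of all genes in that direction. The groups overlapped for all 10 members, while they did not overlap in 19.2% of all genes. No label states that libraries with the same number are pairs. Compared by replicate number, treated was below untreated EAE at all 3 numbers for 3 members, Pycard, Naip2 and Naip6, as for 19% of all genes. It was above at all 3 numbers for 0 members. The median log2 fold change was -0.35 over the members and 0.00 over all genes. This comparison and the one before share the EAE libraries, so that a high EAE library moves both.

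Naip6 had the largest difference, -1.09 on the log2 scale (SE 0.39, 95% interval -1.95 to -0.22, edgeR adjusted p = 0.231), and Naip2 was next with -0.94 (SE 0.40, edgeR adjusted p = 0.305). Without EAE replicate 2 the values were -0.57 and -0.43, and that of Naip5 went from -0.34 to 0.03. Without EAE replicate 1 Naip5 was at -0.64 (edgeR adjusted p = 0.292). Pycard was at -0.49 (SE 0.30, 95% interval -1.15 to 0.17, edgeR adjusted p = 0.485). It was -0.77 without EAE replicate 1 (edgeR adjusted p = 0.225) and -0.27 without EAE replicate 3 (edgeR adjusted p = 0.762). Aim2 was at -0.36 (SE 0.17, edgeR adjusted p = 0.343) with a 95% interval from -0.73 to 0.01. Nlrp3 was at 0.47 (SE 0.40, edgeR adjusted p = 0.640), and it ran from 0.13 without treated replicate 1 to 0.94 without EAE replicate 2 (edgeR adjusted p = 0.448). Nlrp1b (-0.22), Nlrc4 (-0.37), Nlrp1a (0.19) and Nek7 (-0.04) had edgeR adjusted p of 0.771 or more.

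Treated EAE was last compared with naive cortex, which asks what still differed under treatment. No gene passed the edgeR test (0%), members included, and no member was under 0.05 before adjustment, where 1.71% of all genes were. DESeq2 called no member and 0.0161% of all genes. Pycard and Naip5 lay above all naive libraries without overlap, which was so in 3.51% of all genes. Their log2 fold changes were 0.56 (SE 0.30) and 0.30 (SE 0.31). The fitted change was above 0 for 6 members and for 53.6% of all genes. Nlrp3 had the largest, 0.69 (SE 0.40), and its groups overlapped. The 95% interval was within 1 of 0 in both directions for 4 members, Nlrp1b, Aim2, Naip5 and Nek7.

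The rest of the pathway was read from lists of related genes. Of 24 other genes of the NLR family, 10 had enough counts to be tested, and none passed in any comparison by edgeR or DESeq2. In EAE 1 of the 10 was higher and under 0.05 before adjustment, against 9.42% of all genes, so that this count is near the background. It was Nlrc5, a regulator of MHC class I genes, at 2.61, 2.09 and 2.76 CPM in naive and 2.21, 9.83 and 5.91 CPM in EAE (log2 fold change 1.26, SE 0.53, edgeR adjusted p = 0.286). It was at 1.90, 5.64 and 3.01 CPM in treated EAE. As for the NAIP genes, EAE replicate 2 was its highest library and EAE replicate 1 lay among the naive ones. Nod1, a sensor of bacterial peptidoglycan, was the 1 gene of the 10 higher in every EAE library than in any naive one, as were 12.2% of all genes (log2 fold change 0.38, SE 0.20, edgeR adjusted p = 0.389). In treated against untreated EAE the smallest p-values of the list belonged to Nlrp6 (-0.71, edgeR adjusted p = 0.541) and Nlrc5 (-0.76, edgeR adjusted p = 0.549).

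Aim2 belongs to the HIN-200 family of DNA-binding proteins, most of whose genes are induced by interferon. Of 14 other DNA sensor and pyrin genes listed with it, 9 were tested, namely 8 of the HIN-200 family and Cgas, and all 9 were above 0 in EAE with a median log2 fold change of 3.24, against 49% of all genes above 0 and a median of -0.01. By edgeR none passed, with 6 higher and under 0.05 before adjustment, against 9.42% of all genes. By DESeq2 4 passed, against 6.06% of all genes: Ifi204, Ifi207, Ifi209 and Ifi211. Ifi211 had 4, 4 and 1 counts in naive, 16, 75 and 48 in EAE and 2, 19 and 0 in treated EAE (log2 fold change in EAE 4.05, SE 1.02, edgeR adjusted p = 0.0946). Ifi209 had 2, 5 and 0 counts in naive, 10, 115 and 44 in EAE and 10, 37 and 4 in treated EAE (4.64, SE 1.18, edgeR adjusted p = 0.0982). Levels of both in naive cortex were near the limit of detection, and the size of these fold changes rests on a few counts. Genes such as Ifi209 and Ifi211 passed the filter on low counts only through EAE or treated libraries. The share above 0 and the median of the list are therefore partly set by that filter, in EAE against naive and in treated against untreated EAE. Between treated and untreated EAE all 9 were below 0 with a median of -2.08, none passed by edgeR, with 3 under 0.05 before adjustment (7.65% of all genes were, and lower), and Ifi211 (-3.06) and Ifi213 (-2.54) passed by DESeq2, as did 4.44% of all genes. Aim2 had 0.35 and -0.36 in the same comparisons. The mean of Aim2 in EAE, 6.74 CPM, was above those of the 9 genes, of which Ifi204 (3.53 ± 3.53 CPM), Cgas (2.63 CPM) and Ifi203 (2.40 CPM) were the next highest. These means are not scaled by transcript length, so they do not rank the genes by level. Whether Aim2 differs from its relatives was not tested.

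**Figure D4:**
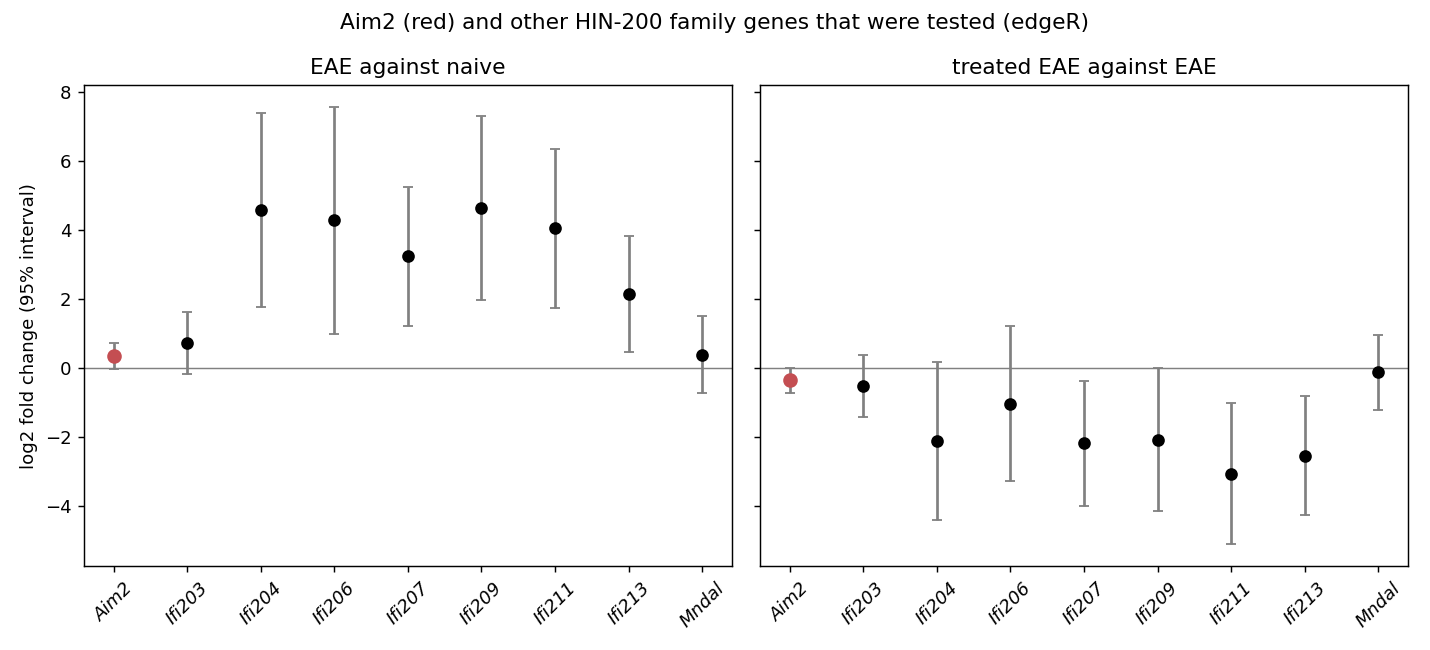
Log2 fold change with 95% interval (vertical axis, edgeR) of Aim2, in red, and of the 8 other HIN-200 family genes that were tested, in EAE against naive and in treated against untreated EAE. Ifi204, Ifi206, Ifi207, Ifi209, Ifi211 and Ifi213 have wide intervals above 0 in EAE, while those of Aim2, Ifi203 and Mndal include 0 in both panels.

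Of 13 caspase, pore and cytokine genes, 12 were tested and none passed by edgeR. In EAE 3 were under 0.05 before adjustment, all higher, against 9.42% of all genes, and DESeq2 called 1 of the 12, Gsdmd, against 6.06%, so that this count is near the background. The median log2 fold change was 0.45. Casp1, the caspase that ASC recruits, was at 0.02 (SE 0.59, 95% interval -1.31 to 1.36), which leaves a change in either direction possible. Il18, one of the cytokines it matures, was at -0.01 (SE 0.10, 95% interval -0.24 to 0.22) with means of 15.5 CPM in naive and 15.4 CPM in EAE. Il1b was at 1.04 with an SE of 1.10, from means of 0.179 and 0.353 CPM. These 3 genes were chosen after their values were seen. Casp4, which encodes caspase-11, the sensor of cytosolic lipopolysaccharide, had 12, 5 and 9 counts in naive, 9, 36 and 34 in EAE and 25, 34 and 4 in treated EAE (log2 fold change in EAE 1.76, SE 0.66, edgeR adjusted p = 0.223). EAE replicate 1 again lay inside the naive range. Gsdmd, at 2.24 to 2.68 CPM in naive, was at 3.41, 7.96 and 5.56 CPM in EAE and at 3.08, 4.01 and 2.68 CPM in treated EAE (log2 fold change in treated against untreated EAE -0.79, SE 0.29, edgeR adjusted p = 0.241). In EAE against naive the value of Gsdmd was 1.21 (SE 0.29, edgeR adjusted p = 0.0812, DESeq2 adjusted p = 0.00512). Casp12 was at 1.17 to 2.56 CPM in EAE and 1.29 to 1.56 CPM in treated EAE (-0.50, edgeR adjusted p = 0.500).

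Of 41 regulators of assembly, 39 were tested, and in EAE 1 rose by edgeR and none fell, where 0.987% of all genes passed. This was Txnip, whose product binds thioredoxin and, when released, NLRP3. It was at 15.0, 17.5 and 18.2 CPM in naive, 31.2, 51.1 and 39.7 CPM in EAE and 23.1, 19.0 and 23.2 CPM in treated EAE, and the 3 groups did not overlap. Of all genes, 12.2% lay higher in EAE than in naive without overlap and 3.51% higher in treated EAE than in naive. Treated and untreated EAE did not overlap, in either direction, in 19.2%. The log2 fold change of Txnip in EAE was 1.27 (SE 0.17, edgeR adjusted p = 0.0192). It stayed between 1.07 and 1.43 in all alternatives but missed the threshold without any 1 of the naive libraries or EAE replicate 3, with an edgeR adjusted p of at most 0.119. Between treated and untreated EAE it was -0.90 (SE 0.17, edgeR adjusted p = 0.0851), with DESeq2 adjusted p = 0.000216, and without EAE replicate 1 -1.07 with an edgeR adjusted p = 0.0319. With Txnip, DESeq2 called 4 of the 39 in EAE, against 6.06% of all genes, the others being Bcl2l1, Tlr2 and Tlr4 (log2 fold changes 0.30, 1.64 and 1.00). It also called, where 4.44% of all genes passed, Dpp9 higher (0.34) and Bcl2l1 lower (-0.23) in treated against untreated EAE. Dpp9, which encodes a protease that holds NLRP1 inactive, was at 72.9 to 84.1 CPM in EAE and 91.0 to 106 CPM in treated EAE (edgeR adjusted p = 0.130). These groups did not overlap, as in 19.2% of all genes in either direction. In treated EAE against naive no gene of any of the 4 lists passed by edgeR or DESeq2, and none was under 0.05 before adjustment. The smallest p-values were those of Nod1 (0.25) and Nlrc3 (0.21), Ifi206 and Ifi209 (2.57), Casp4 (1.06) and Gsdmd (0.42), and Txnip (0.37) and Tlr4 (0.48), with log2 fold changes in brackets. Ifi206 had 0, 2 and 0 counts in naive and 5, 15 and 5 in treated EAE.

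The genes whose pattern over the 9 libraries was most like that of a member were taken from 15546 genes whose log2 CPM averaged 0 or more. For Pycard they were Ifi30, Cyba, Gusb, Csf2rb and Vav1, with Pearson r between 0.96 and 0.98. For Naip2 they were Rasal3, C1qc, C1qa, Inpp5d and Ggta1 (0.98 to 0.99) and for Naip5 Selplg, Inpp5d, Csf1r, Isg15 and Tmem119 (0.96 to 0.98). C1qa, C1qc, Csf1r and Tmem119 are in the list of microglial markers used above. For Naip6 they were H2-Q4, Trim12a, A630001G21Rik, Kcnmb3 and H2-D1 (0.95 to 0.97). For Nek7 they were Triobp, Qk, Kcnj8, Map4k4 and Nek9 (0.94 to 0.97). For Nlrp3 the nearest were Mocos (0.97) and Insyn2a (0.95), for Aim2 Mbd2 and Rab34 (0.96 both), and for Nlrp1b Phf5a (0.94) and Tbc1d10a (0.93). The libraries of a group and their depth are shared by all genes, so these values only describe likeness. The lists of Nlrp1a and Nlrc4, with few counts, are not given.

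Among the members themselves, the highest Pearson correlations over the 9 libraries were those of Naip2 with Naip5 (r = 0.91), Pycard (0.88) and Naip6 (0.87) and of Nlrp1b with Naip5 (0.85). The order depends on the measure: Spearman's rho was highest for Naip2 with Pycard (0.88), and was 0.75 for Naip2 with Naip5, 0.55 for Naip2 with Naip6 and 0.77 for Nlrp1b with Naip5. Nlrp3 was at 0.52 with Naip5, 0.45 with Nlrp1b, 0.29 with Naip2 and 0.14 with Pycard. Nek7 was at 0.06 with Naip2, 0.08 with Pycard and -0.22 with Nlrp3. Its lowest value was -0.79 with Nlrp1a and its highest 0.33 with Nlrc4, both genes with few counts. The part of shared reads in the values among the NAIP genes was not tested.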

How the data were processed

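The members and gene lists were chosen with earlier results of these data known. Per the labels' protocols, libraries were made from oligo(dT)-selected RNA of cortex. FastQC 0.11.8, fastp and mm10 (assembly GRCm38) are named per the submitters' processing notes, and the series' design text names Hisat2 for alignment, bowtie2 for quantification and DESeq2 for the authors' own comparisons. For annotation, counting options and strand setting no source used here gives an answer. Raw counts per gene symbol were deposited, and 9 columns that match no sample used here were left out. Genes with 2 counts outnumbered those with 1 by 3.80 to 4.43 times, so both mates of a fragment may have been counted.

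Counts were analysed with edgeR 4.0.16 in R 4.3.3 (filterByExpr, TMM, robust quasi-likelihood fit on all 9 libraries, 6 residual degrees of freedom, Benjamini-Hochberg over 18644 genes, threshold 0.05). CPM uses TMM-scaled totals, and log2 fold changes include a small prior count. Standard errors are the log2 fold change over the square root of F, and 95% intervals use the t quantile of the fit. No 2 libraries of a group were copies (chi-square per degree of freedom 16.0 to 53.4). DESeq2 1.42.0 was the alternative test. Other alternatives were RLE and upper quartile scaling, no filter, only the 2 groups compared, a replicate block and each library left out. The script was tested on simulated data. The departures from their group means of EAE and treated libraries with the same number correlated at 0.17, 0.24 and 0.24. Those of naive libraries with the same number as an EAE or treated one ran from -0.25 to 0.36. Differently numbered libraries reached similar values, as treated replicate 2 with naive replicate 1 (0.35), so these correlations do not show a pairing. No label states one, and the main fit held no pairing term. Numbers were used only in the replicate block and in the count by replicate number.

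All 10 members are named in each comparison. Of the other lists, genes past the threshold and the 2 with the smallest p per list were eligible. Casp1, Il18, Il1b, Cgas, Ifi203, Ifi204, Ifi207, Mndal and Tlr2, and Tlr4, Ifi206 and Ifi213 in EAE and Bcl2l1 in treated EAE, were chosen after their values were seen. For likeness, the 5 highest Pearson correlations of log2 CPM with a prior count of 2 were taken per member. Positions and transcripts are from GENCODE M21, promoter windows from RefSeq for GRCm38.p6, and alignments were made with Biopython 1.88.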

Additional observations from a re-analysis of the deposited data

How the results depend on the processing

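Over 15 alternatives per comparison, the edgeR count of 0 members called in EAE against naive became 2 with DESeq2 (Pycard and Naip2) and ran from 0 to 1 when single libraries were left out. In the other comparisons it was 0 in all 15. Genes called in EAE against naive, 184, became 1086 with DESeq2 and 2 to 261 without single libraries. In treated against untreated EAE, 41 became 748 with DESeq2, 3 with only these 2 groups in the fit and 4 to 38 without single libraries. In treated EAE against naive, 0 became 3 with DESeq2. With the replicate block the counts were 238, 46 and 0. The block changed no member's call. Of the list genes with the 2 smallest p-values per comparison, to which the alternatives for single genes were limited beside the members, it changed that of Ifi209 in EAE against naive (4.46, edgeR adjusted p = 0.0317).

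Among those genes and the members, directions turned without single libraries and under no other alternative, in differences that had not passed. The lowest and highest log2 fold changes without 1 library are given. In EAE against naive they were -0.25 and 0.51 for Nlrp3, -0.67 and 0.044 for Nlrp1a, and -0.67 and 0.72 for Nlrc4. In treated against untreated EAE they were -0.25 and 0.62 for Nlrp1a, -0.80 and 0.59 for Nlrc4, -0.64 and 0.033 for Naip5, and -0.23 and 0.061 for Nek7. In treated EAE against naive they were -0.48 and 0.30 for Nlrp1a, -0.0015 and 0.34 for Nlrp1b, -0.49 and 0.29 for Nlrc4, -0.090 and 0.088 for Aim2, -0.31 and 0.017 for Naip6, -0.15 and 0.14 for Nek7, and -0.019 and 0.40 for Nod1. The cause was not tested. Depth limits Nlrp1a and Nlrc4 most, for which DESeq2 gave no adjusted p in some comparisons.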
